A study of Mus musculus with 14 samples.

Results

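The genes examined were the 10 mouse genes Kat5, Ep400, Trrap, Brd8, Epc1, Epc2, Mbtd1, Morf4l1, Morf4l2 and Dmap1, which encode subunits of the TIP60 histone acetyltransferase complex. They were chosen by symbol and not by any measured value, and each symbol matched 1 of the 45706 gene rows of both count tables. RNA was sequenced from blood-forming cells of mice that lacked Prmt5, the gene of an arginine methyltransferase that modifies histones and splicing proteins. The 14 libraries fell into 6 groups. Sorted LK cells, a progenitor population, came from Mx1-cre;PRMT5fl/fl mice (LK KO, n = 3) or PRMT5fl/fl mice (LK WT, n = 3), and both were collected 7 days after poly(I:C), the agent that switches Mx1-cre on, so the controls had been exposed to it too. Fetal liver cells of stage E14.5 mice, as the labels give it, were sorted by Ter119, a surface antigen of maturing red cells, into a positive and a negative fraction. These came from Vav-cre;PRMT5fl/fl embryos (Ter119pos KO and Ter119neg KO, n = 2 each) or PRMT5fl/fl embryos (Ter119pos WT and Ter119neg WT, n = 2 each). Mice 1 and 2 gave both KO fractions and mouse 4 both WT fractions, whereas mouse 3 gave the other Ter119neg WT library and mouse 5 the other Ter119pos WT library. Vav-cre acts across the blood system and not in red cells alone, and the KO fetuses carried Cre while their controls did not. The labels give no strain, no age for the LK mice, and no mouse for the LK libraries, so the LK p-values measure the spread between those samples, whatever its source. The title of the series concerns the splicing of epigenetic factors. The values here are gene-level counts, from which splicing, including that of Kat5, could not be judged.

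TIP60, the product of Kat5, is an acetyltransferase of the MYST family that acts on histones H4 and H2A and on proteins of the DNA damage response. It works in a large assembly in which Ep400, a chromatin remodelling ATPase, exchanges histone variants, Trrap is a scaffold that DNA-binding activators recruit, and Epc1 or its relative Epc2 tethers the acetyltransferase to the rest. Other subunits read chromatin marks, and several are shared with the SAGA, SRCAP and SIN3 complexes. In blood the complex is known for its role in stem and progenitor cell maintenance.

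Loss of Prmt5 went with lower levels of 4 TIP60 genes in Ter119pos cells: Brd8, Epc2, Ep400 and Epc1 were at 0.267 to 0.442 times the WT level. Dmap1 was the only member called higher, at 1.95 times the WT level. The acetyltransferase gene itself, Kat5, was not called in any of the 6 comparisons with TMM scaling. With total count scaling it was called in 4 of them, always lower, along with a shift of all genes. Thus 5 of 10 members were called in Ter119pos KO against WT (edgeR quasi-likelihood test, Benjamini-Hochberg adjusted p under 0.05), where 54.2% of all tested genes were called, so the share of members called was near that of all genes. In Ter119neg cells 2 of 10 members were called against 19.1% of all genes, and in LK cells 0 of 10 against 1.82% of all genes.

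The promoters of Ep400 and Epc2, which fell, and of Dmap1, which was higher, are shown as regulatory sequence of 3 of the 5 members called in Ter119pos cells. Brd8 and Epc1, the other two, are named only. The RefSeq windows on GRCm38.p6 cover 250 bases before the annotated start, trimmed to bases outside the GENCODE M21 gene, on the gene's own strand. Capitals mark matches to CCNCNCCC, a motif of Krüppel-like factors, on either strand.
Ep400: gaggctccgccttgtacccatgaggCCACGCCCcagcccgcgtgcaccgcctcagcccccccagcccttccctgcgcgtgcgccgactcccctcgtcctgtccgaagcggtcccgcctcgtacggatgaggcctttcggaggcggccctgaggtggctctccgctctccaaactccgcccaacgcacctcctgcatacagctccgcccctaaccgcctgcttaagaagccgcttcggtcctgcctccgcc
Epc2: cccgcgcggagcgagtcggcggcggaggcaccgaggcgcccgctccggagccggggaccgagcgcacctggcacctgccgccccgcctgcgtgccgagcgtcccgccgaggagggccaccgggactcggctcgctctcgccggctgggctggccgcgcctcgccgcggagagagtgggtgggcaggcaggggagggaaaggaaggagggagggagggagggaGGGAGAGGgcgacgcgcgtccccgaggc
Dmap1: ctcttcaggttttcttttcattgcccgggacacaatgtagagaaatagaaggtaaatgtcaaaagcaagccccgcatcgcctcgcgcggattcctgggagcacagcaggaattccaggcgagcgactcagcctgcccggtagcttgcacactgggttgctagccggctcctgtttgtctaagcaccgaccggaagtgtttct
The Ep400 sequence is chr5:110770718-110770967 on the minus strand with 70.0% G and C, Epc2 is chr2:49451236-49451485 on the plus strand with 79.2%, and Dmap1 is chr4:117682274-117682475 on the minus strand with 54.5%. The distal end of the Ep400 window also lies in an exon of the antisense transcript Gm15559. Ep400 and Epc2 each held 1 match to CCNCNCCC and Dmap1 held 0, and 45.9% of all 32851 windows of 250 bases held at least 1. GATAA, the core of the GATA factor motif, was in none of these 3 windows, against 22.6% of all windows. These letter matches are a description of the windows. Windows of 8 members were read here, and Brd8 and Epc1 were not among them. This does not mean that the source lacks windows for Brd8 and Epc1.

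Across the series, total counts ran from 19514550 to 30976961 per library. Prmt5 averaged 11.5 ± 0.903 CPM (counts scaled to a common library size by the TMM method) in LK KO and 81.0 ± 25.5 in LK WT (SD, n = 3 each). It averaged 4.38 ± 0.179 CPM in Ter119neg KO and 52.0 ± 0.347 in Ter119neg WT, and 4.28 ± 0.903 in Ter119pos KO and 15.7 ± 2.79 in Ter119pos WT (SD, n = 2 each), so every KO library was below every WT library of its fraction. The summed level of 9 erythroid markers was 335324 to 439259 CPM in Ter119pos KO and 303457 to 338557 in Ter119pos WT, and 938 to 1534 CPM in Ter119neg KO and 549 to 632 in Ter119neg WT. In Ter119pos cells that sum is mostly globin, and 3 of the other markers were called lower in KO by edgeR while 0 of the 9 were called higher. Slc4a1, the anion exchanger of the red cell membrane, averaged 4636 ± 527 CPM in Ter119pos KO and 12936 ± 1666 in Ter119pos WT (SD, n = 2 each). Ermap averaged 493 ± 64.5 CPM in Ter119pos KO and 1950.1 ± 273 in Ter119pos WT, and Tspan33 averaged 257 ± 5.83 CPM in Ter119pos KO and 613 ± 95.4 in Ter119pos WT. In Ter119neg KO, 6 of the 9 were called higher and 0 lower. Ter119pos KO libraries differed from the others in make-up: globins took 16.4% and 18.3% of their counts, against 25.1% and 24.6% in Ter119pos WT, and their largest row was Rn7s1 with 14.1% and 13.7%. In LK, Rn18s-rs5 took 23.4% of KO library B and 18.0% of WT library B, and at most 0.179% of the other LK libraries.

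By length, the members were not present in like amounts. In Ter119pos KO the highest level per kilobase (CPM divided by the length of the longest annotated transcript) was that of Morf4l2 at 36.6 ± 0.82, followed by Morf4l1 at 14.3 ± 2.12 and Brd8 at 12.2 ± 0.824, and the lowest was Epc2 at 2.22 ± 0.187 (SD, n = 2). In Ter119pos WT, Brd8 stood first at 45.7 ± 7.56, followed by Morf4l2 at 31.3 ± 3.99 and Ep400 at 28.0 ± 4.29, and Dmap1 was lowest at 3.59 ± 0.691 (SD, n = 2). Of these neighbours in order, only Morf4l2 and Ep400 in Ter119pos WT overlapped between libraries; further down, Epc2 and Trrap overlapped in Ter119pos WT, and Kat5, Epc1 and Mbtd1 in Ter119pos KO. In both Ter119neg groups and both LK groups the mean of Morf4l2 was again highest and that of Epc2 lowest. Morf4l2 and Morf4l1 overlapped between libraries in LK KO and in LK WT, and Epc1 and Epc2 overlapped in LK WT. The order also rests on the transcript length used. Without division by length, Morf4l1 averaged 266 CPM in LK KO and 296 in LK WT, and Morf4l2 148 and 165. Kat5 was among the lower members everywhere in fetal liver, between 4.91 ± 0.203 CPM per kilobase in Ter119pos KO and 5.78 ± 0.013 in Ter119pos WT.

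**Figure D1:**
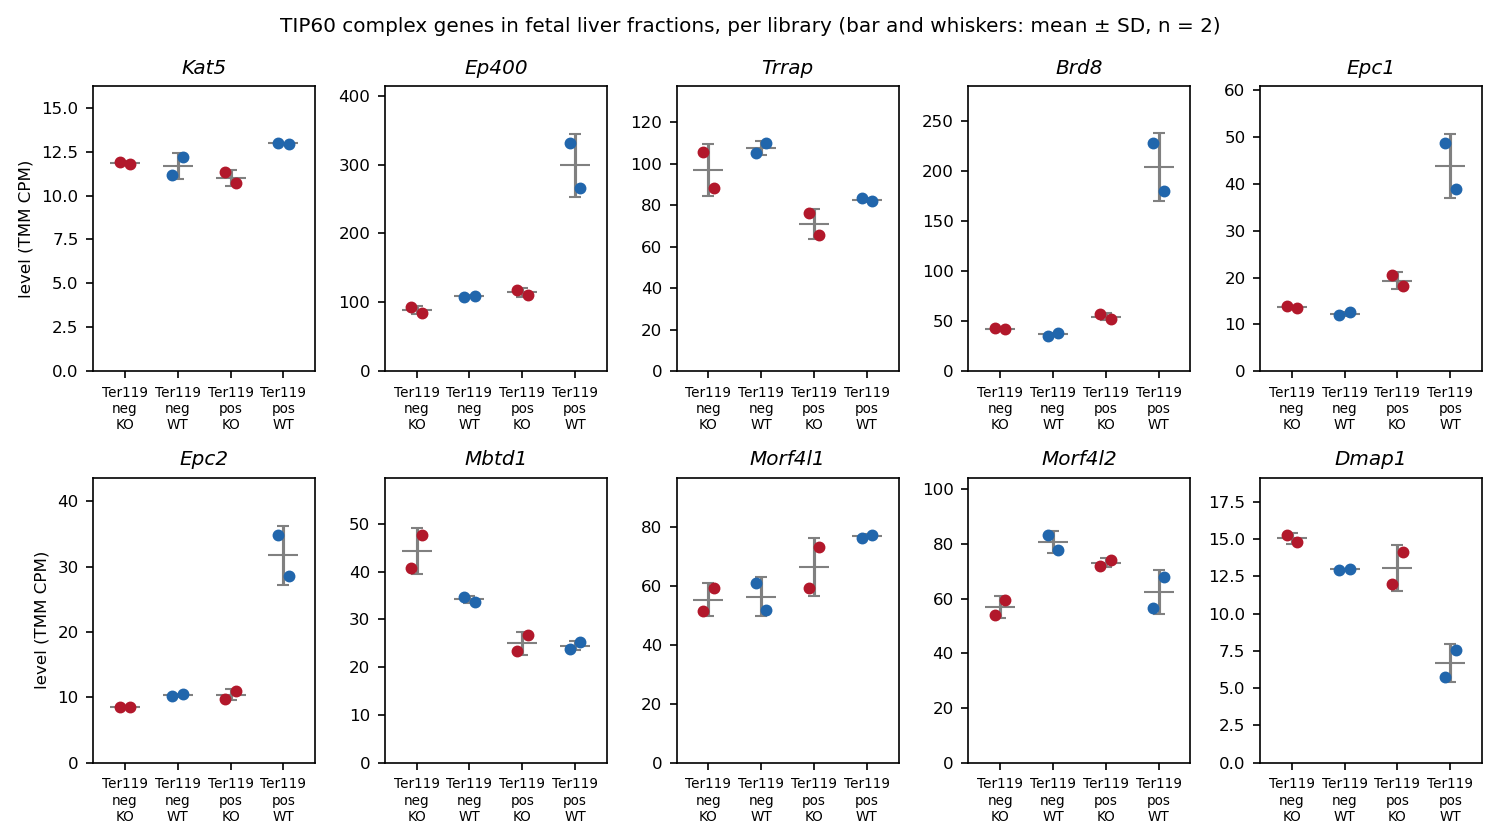
Levels of the 10 TIP60 complex genes in the 8 fetal liver libraries, as TMM-scaled CPM on the vertical axis with a separate scale per gene. Points are libraries (red KO, blue WT), and the bar and whiskers are the mean and SD of 2. Ep400, Brd8, Epc1 and Epc2 stand high in Ter119pos WT alone, where Dmap1 is low.

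Kat5, the acetyltransferase, had 11.3 and 10.7 CPM in the Ter119pos KO libraries, against 13.0 and 12.9 CPM in Ter119pos WT. Both KO libraries were below both WT libraries, as for 39.8% of all tested genes, but the log2 fold change of -0.23 ± 0.13 (SE) was not called (edgeR adjusted p = 0.151). In Ter119neg it had 11.9 and 11.8 CPM in KO, against 11.1 and 12.2 CPM in WT, and the groups overlapped (log2 fold change 0.02 ± 0.114, adjusted p = 0.913). The difference between the KO effects of the fractions was -0.26 ± 0.173 on the log2 scale (adjusted p = 0.257). With total count scaling Kat5 was called lower in Ter119pos KO (-1.12, adjusted p = 5.18e-05) and in the difference of KO effects (-0.84, adjusted p = 0.0216), where the medians of all genes moved by -0.89 and -0.57. Relative to those shifts its values were -0.23 and -0.27. It was also called lower with that scaling in Ter119pos against Ter119neg, at -1.85 in KO and -1.01 in WT. The gene lies at chr19:5603014-5610237 on the minus strand and overlaps Rnaseh2c, a protein-coding gene on the opposite strand with a mean of 547 expected counts in the fetal libraries. All of its expected counts were fractional, as RSEM gives where reads match more than 1 gene, and the strand setting of the counting is not given in the sources used here.

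Epc1 and Epc2, the subunits that hold the acetyltransferase, fell together. Epc1 had 20.6 and 18.1 CPM in Ter119pos KO, against 48.7 and 39.0 CPM in Ter119pos WT. Epc2 had 9.80 and 11.0 CPM in Ter119pos KO, against 34.9 and 28.5 CPM in Ter119pos WT. Neither gene's libraries overlapped between genotypes there, as for 75.5% of all tested genes. The log2 fold changes were -1.18 ± 0.131 for Epc1 (SE, edgeR adjusted p = 9.6e-06) and -1.61 ± 0.139 for Epc2 (adjusted p = 1.23e-06). In Ter119neg the differences of the pair had opposite signs. Epc1 had 13.9 and 13.6 CPM in KO, against 12.0 and 12.6 CPM in WT, and Epc2 had 8.50 and 8.46 CPM in KO, against 10.2 and 10.4 CPM in WT. Epc1 was thus higher in both KO libraries and Epc2 lower in both, with log2 fold changes of 0.16 ± 0.126 and -0.28 ± 0.129 that were not called (adjusted p = 0.41 and 0.154). With total count scaling Epc2 was at -0.59 there and called lower (edgeR adjusted p = 0.0331), and at -0.28 relative to the shift of all genes. The ratio of Epc1 to Epc2 per kilobase within a library was 1.94 and 1.90 in Ter119neg KO, against 1.40 and 1.43 in Ter119neg WT. It was 2.49 and 1.94 in Ter119pos KO, against 1.65 and 1.62 in Ter119pos WT. Epc1 expected counts were partly fractional, from shared reads, and those of Epc2 were whole.

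Ep400, the remodelling ATPase, had 119 and 110.2 CPM in Ter119pos KO, against 331 and 266 CPM in Ter119pos WT. Trrap, the scaffold shared with SAGA, had 76.2 and 65.7 CPM in Ter119pos KO, against 83.4 and 82.0 CPM in Ter119pos WT. Both genes were lower in each KO library than in each WT library, as were 39.8% of all tested genes. Ep400 was the one of them that passed the test. Its log2 fold change was -1.39 ± 0.137 (SE, edgeR adjusted p = 3.68e-06), while that of Trrap was -0.22 ± 0.127 (adjusted p = 0.165). In Ter119neg, Ep400 had 93.0 and 85.0 CPM in KO, against 108 and 109.8 CPM in WT, a log2 fold change of -0.29 ± 0.134 that was not called (adjusted p = 0.153). With total count scaling it was -0.59 and called lower (edgeR adjusted p = 0.0369), and -0.28 relative to the shift of all genes. Trrap there had 106 and 88.2 CPM in KO, against 105 and 110.1 CPM in WT, with overlap (log2 fold change -0.15 ± 0.124, adjusted p = 0.443). Ep400 (chr5:110664373-110770717, minus strand) and Trrap (chr5:144767732-144859778, plus strand) lie on the same chromosome and are the longest transcripts of the set. The fetal libraries also held a mean of 142 expected counts of Gm26079, a small nucleolar RNA inside Ep400 on the same strand, and the Ep400 counts were partly shared.

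Brd8, a bromodomain subunit, showed the largest change of the 10 members in Ter119pos cells. It had 57.1 and 51.8 CPM in KO, against 228 and 180.1 CPM in WT, with its log2 fold change at -1.90 ± 0.134 (SE, edgeR adjusted p = 3.15e-07). The groups did not overlap, and 6.64% of all tested genes had a lower log2 fold change. In Ter119neg it had 43.0 and 41.8 CPM in KO, against 35.4 and 38.1 CPM in WT. There the KO libraries were the higher ones, and the log2 fold change of 0.21 ± 0.129 was not called (adjusted p = 0.294). Brd8 expected counts were whole and its annotated gene overlaps no other, so its values held no reads that RSEM split between genes.

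Dmap1, a DNMT1-binding protein that TIP60 shares with SRCAP, was higher in Ter119pos KO. It had 12.0 and 14.1 CPM in KO, against 5.77 and 7.59 CPM in WT, from 171 and 164 expected counts in KO and 96 and 129 in WT. The groups did not overlap, and the log2 fold change was 0.96 ± 0.161 (SE, edgeR adjusted p = 0.00026). In Ter119neg it had 15.3 and 14.8 CPM in KO, against 13.0 and 13.0 CPM in WT, a log2 fold change of 0.21 ± 0.133 that was not called (adjusted p = 0.295). Scaling by total counts in place of TMM took the Ter119pos value to 0.06 (adjusted p = 0.828), under a shift of -0.89 in the median of all genes; relative to that shift it was 0.95.

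Mbtd1 and Morf4l2 were called in Ter119neg and not in Ter119pos cells. Mbtd1, which binds methylated histone H4 through its MBT repeats, had 40.8 and 47.7 CPM in Ter119neg KO, against 34.7 and 33.7 CPM in Ter119neg WT. It was called higher there (log2 fold change 0.37 ± 0.11, edgeR adjusted p = 0.0326), though not by DESeq2 (adjusted p = 0.113) and not when any 1 of the 4 Ter119neg libraries was left out. In Ter119pos it had 23.3 and 26.7 CPM in KO, against 23.8 and 25.2 CPM in WT, and the libraries were intermixed (log2 fold change 0.03 ± 0.122, adjusted p = 0.873). Morf4l2, an MRG-domain protein related to the chromodomain reader Morf4l1, had 54.1 and 59.7 CPM in Ter119neg KO, against 83.5 and 78.0 CPM in Ter119neg WT. It was called lower, at -0.51 ± 0.116 on the log2 scale (adjusted p = 0.0099), but not without Ter119neg KO library A (-0.47, adjusted p = 0.0819) or Ter119neg WT library A (-0.49, adjusted p = 0.0717). In Ter119pos it had 72.0 and 74.3 CPM in KO, against 56.8 and 68.0 CPM in WT, where both KO libraries were the higher ones. That log2 fold change of 0.23 ± 0.119 was not called (adjusted p = 0.126), and in a fit of the Ter119pos libraries alone it was 0.41 and called (adjusted p = 0.0208). With globin genes removed it was 0.33 and called (edgeR adjusted p = 0.0411). It was also called in 5 of the 8 fits that left out 1 fetal library, while with total count scaling it was -0.67. Morf4l2 is on the X chromosome. The mouse 2 libraries, Ter119neg KO B and Ter119pos KO B, had 372 and 462 CPM of Xist, the RNA of the inactive X, and the other fetal libraries at most 1.80 CPM, and the part of this in the Morf4l2 values was not tested. Morf4l1 overlapped between genotypes in Ter119neg, with 51.5 and 59.3 CPM in KO and 61.1 and 51.8 CPM in WT. In Ter119pos it had 59.5 and 73.4 CPM in KO, against 76.4 and 77.5 CPM in WT, and was not called (log2 fold change -0.21 ± 0.133, adjusted p = 0.197).

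Set against all genes, the share of members called was close to the background, and 4 of the 5 called in Ter119pos cells were lower in KO. In Ter119pos KO against WT, 4 members were called lower and 1 higher, where 29.3% of all genes were called lower and 24.8% higher. All libraries of KO were below those of WT for 7 members and above for 2, where 39.8% and 35.8% of all genes were so (75.5% in either direction). The median log2 fold change of the 10 members was -0.23, and that of all tested genes -0.04. In Ter119neg, 1 member was called higher and 1 lower, against 9.57% and 9.55% of all genes, and libraries did not overlap for 4 higher and 3 lower members, against 31.5% and 31% of all genes (62.6% in either direction). The members' median there was -0.00 and that of all genes 0.01. In these bulk samples, fewer cells that express a gene and less of its RNA per cell cannot be told apart. In Ter119neg the summed level of 10 macrophage markers was 32.5 to 36.6 CPM in KO and 144 to 156 CPM in WT, and that of 6 progenitor markers was 664 to 669 CPM in KO and 1032 to 1035 CPM in WT, with 4 of the 6 called lower. Granulocyte markers (8) summed there to 949 to 1332 CPM in KO and 1716 to 1779 CPM in WT, hepatocyte markers (6) to 112 to 226 CPM in KO and 233 to 384 CPM in WT, and lymphoid markers (5, with Cd3e at 0) to 2.01 to 2.69 CPM in KO and 7.61 to 9.04 CPM in WT. All 8 granulocyte log2 fold changes were negative there, and 1 was called. Mpo, which is in both the granulocyte and the progenitor list, averaged 382 ± 22.4 CPM in Ter119neg KO and 711 ± 11.7 CPM in Ter119neg WT (SD, n = 2 each). In Ter119pos the 8 granulocyte markers summed to 27.9 to 79.9 CPM in KO and 91.7 to 181 CPM in WT, the 5 megakaryocyte markers to 28.4 to 29.5 CPM in KO and 18.2 to 19.4 CPM in WT, the 6 hepatocyte markers to 52.1 to 75.0 CPM in KO and 26.6 to 37.8 CPM in WT, and the 6 endothelial and stromal markers to 15.6 to 34.9 CPM in KO and 6.41 to 9.38 CPM in WT, with no marker of these lists at 0. Not all markers followed their sums. Of the megakaryocyte markers 3 were called higher and 1, Gp9, lower (2.09 CPM in KO and 4.79 in WT). Of the endothelial and stromal markers 4 were called higher and 1 lower. There Cdh5 (0.781 CPM in KO and 2.12 in WT) and Kdr (1.63 and 2.49) were the 2 with lower levels in KO. The progenitor markers did not move one way there. Their sum of 37.4 to 55.0 CPM in KO and 68.3 to 79.3 CPM in WT followed Mpo, a gene of granulocytes too, at 16.0 ± 7.94 CPM in KO and 49.1 ± 10.8 CPM in WT (SD, n = 2 each). By edgeR 1 of the 6, Kit, was called higher in KO and 2, Mpo and Flt3, were called lower. Flt3 averaged 0.512 ± 0.13 CPM in KO and 1.16 ± 0.0597 CPM in WT. Of the 6 log2 fold changes 4 were positive, with a median of 0.05. The part of these shifts in the member values was not tested.

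**Figure D2:**
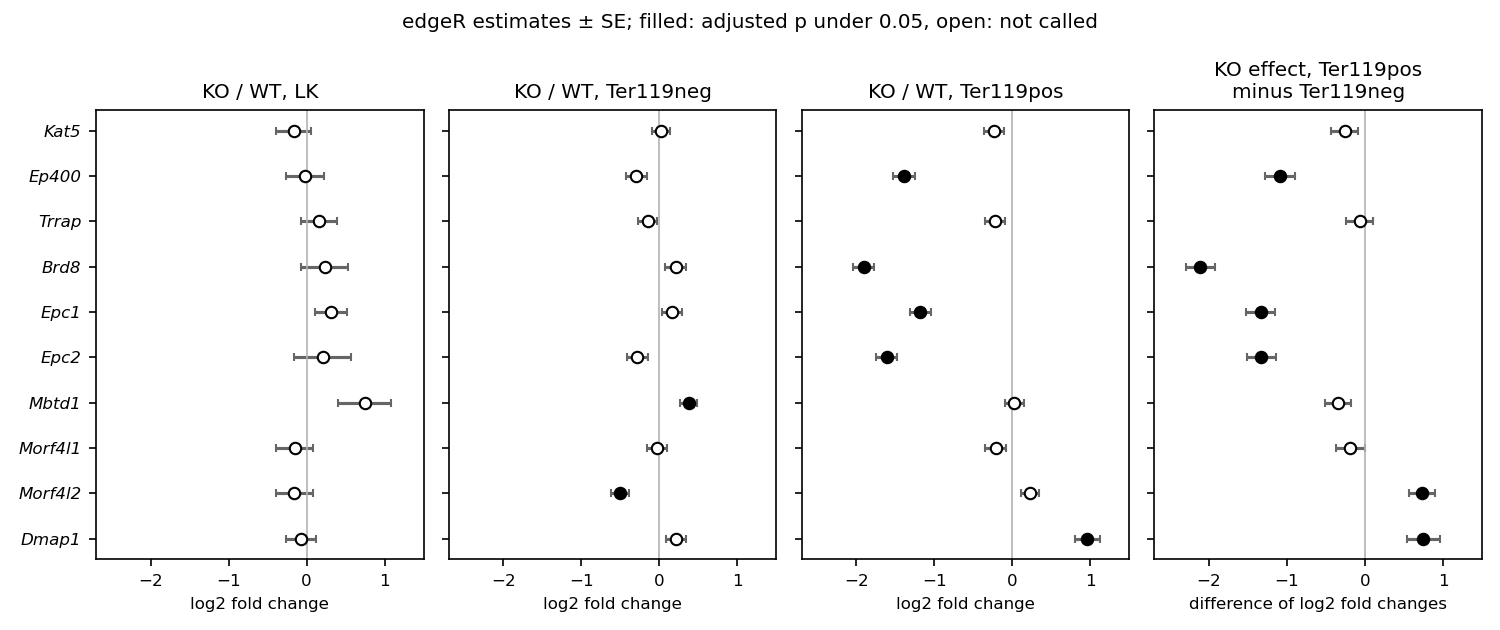
edgeR log2 fold changes (horizontal axis) of the 10 members for KO relative to WT, in LK cells and in each fetal fraction, and the difference of the Ter119pos and Ter119neg KO effects. Whiskers are SE, and filled points have an adjusted p under 0.05; Brd8, Epc2, Ep400 and Epc1 lie between -1.90 and -1.18 in Ter119pos cells.

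The test of whether the KO effect differed between the fractions called 6 of 10 members, against 41.7% of all genes. The KO effect was lower in Ter119pos than in Ter119neg for Brd8 by -2.11 ± 0.185 (SE, edgeR adjusted p = 1.37e-05), for Epc1 by -1.34 ± 0.182 (adjusted p = 0.000137), for Epc2 by -1.33 ± 0.189 (adjusted p = 0.000185) and for Ep400 by -1.09 ± 0.191 (adjusted p = 0.000706). It was higher for Dmap1 by 0.75 ± 0.209 (adjusted p = 0.0127) and for Morf4l2 by 0.73 ± 0.166 (adjusted p = 0.00383). Of all genes, 22.4% were called lower and 19.3% higher. The calls of Brd8, Epc1, Epc2 and Ep400 held under all 16 alternatives run. That of Dmap1 was lost without Ter119pos KO library B (0.63, adjusted p = 0.0531), without Ter119pos WT library A (0.56, adjusted p = 0.0556) and with total count scaling (0.15, adjusted p = 0.724). That of Morf4l2 was lost with total count scaling alone (0.15, adjusted p = 0.695). Mbtd1 was not called in this test (-0.35, adjusted p = 0.107) and was called with the mouse as a block (-0.41, adjusted p = 0.0313).

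In WT embryos the 4 largest positive differences between the fractions were those of Brd8, Epc1, Epc2 and Ep400. This comparison shares the Ter119pos WT libraries with KO against WT in Ter119pos, and both sets of values rest on them. Ter119pos WT against Ter119neg WT gave log2 fold changes of 2.47 ± 0.134 for Brd8 (SE, edgeR adjusted p = 5.39e-09), 1.83 ± 0.127 for Epc1 (adjusted p = 5.08e-08), 1.62 ± 0.127 for Epc2 (adjusted p = 1.6e-07) and 1.45 ± 0.136 for Ep400 (adjusted p = 8.53e-07). The libraries of the fractions did not overlap for any of the 10 members, 6 higher and 4 lower, where 41% of all genes were higher and 48.2% lower without overlap (89.2% in all). Of all genes, 11.2% had a higher log2 fold change than Brd8. Morf4l1 was also called higher, at 0.45 ± 0.131 (adjusted p = 0.00776), but not without Ter119neg WT library B (0.26, adjusted p = 0.164), and with total count scaling it was lower at -0.72. Dmap1 (-0.96 ± 0.15, adjusted p = 8.54e-05), Mbtd1 (-0.48, adjusted p = 0.00228), Trrap (-0.38, adjusted p = 0.0146) and Morf4l2 (-0.37, adjusted p = 0.0118) were called lower. With the mouse as a block, which leaves mouse 4 as the only WT animal compared within itself, Morf4l2 was no longer called (-0.20, adjusted p = 0.132). Its call was also lost without Ter119pos WT library A (-0.25, adjusted p = 0.116), and that of Trrap without Ter119pos WT library B (-0.38, adjusted p = 0.0564). Kat5 was the 1 member not called (0.15, adjusted p = 0.256). These 9 of 10 members compare with 76.3% of all genes called, 35.9% higher and 40.4% lower. With total count scaling, which moved the median of all genes by -1.16, Ep400 was not called (0.28, adjusted p = 0.197).

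Between the fractions of KO embryos, 6 members were called. Epc1 (0.50 ± 0.133, edgeR adjusted p = 0.00604), Brd8 (0.36 ± 0.131, adjusted p = 0.0295), Ep400 (0.36 ± 0.135, adjusted p = 0.0342) and Morf4l2 (0.36 ± 0.118, adjusted p = 0.0177) were called higher in Ter119pos KO than in Ter119neg KO, and Mbtd1 (-0.83 ± 0.117, adjusted p = 5.26e-05) and Trrap (-0.45 ± 0.126, adjusted p = 0.00764) lower. These 6 of 10 members compare with 62.6% of all genes, 30.3% higher and 32.3% lower. No member's libraries overlapped between the fractions, with 6 higher and 4 lower, where 37.9% of all genes were higher and 44% lower without overlap (81.9% in all). With the mouse as a block, Epc2 (0.29, adjusted p = 0.0347) and Morf4l1 (0.26, adjusted p = 0.0072) were called as well. Directions in this comparison depend on the scaling: total counts moved the median of all genes by -1.74, and all 10 members were then lower in Ter119pos KO. Relative to that shift Epc1, Morf4l2, Brd8 and Ep400 were at 0.49, 0.36, 0.36 and 0.35. The call of Brd8 was lost without Ter119pos KO library A (0.28, adjusted p = 0.177), as was that of Epc1 (0.39, adjusted p = 0.0711). The calls of Ep400, Trrap and Morf4l2 were each lost in more than 1 of the fits that left out a library.

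Ratios within a library, which no scaling factor enters, showed how the make-up of the set differed. Those of Brd8, Ep400, Epc1 and Epc2 set a member called in Ter119pos over Kat5 or Trrap, which were not. They use the same counts, so their direction in Ter119pos follows from those calls and is no further support. Brd8 per Kat5, by kilobase, was 2.53 and 2.44 in Ter119pos KO, against 8.82 and 6.99 in Ter119pos WT. It was 1.81 and 1.78 in Ter119neg KO, against 1.59 and 1.57 in Ter119neg WT, so KO was below WT in Ter119pos and above it in Ter119neg. How many ratios of other gene pairs were separated by genotype was not computed. Of single genes, 75.5% in Ter119pos and 62.6% in Ter119neg did not overlap between genotypes. Ep400 per Kat5 was 2.20 and 2.16 in Ter119pos KO, against 5.36 and 4.32 in Ter119pos WT, and 1.64 and 1.52 in Ter119neg KO, against 2.04 and 1.89 in Ter119neg WT. Ep400 per Trrap was 1.82 and 1.96 in Ter119pos KO, against 4.64 and 3.80 in Ter119pos WT. Ter119pos KO was the lower genotype in each of these ratios. Epc1 per Kat5 was 1.03 and 0.959 in Ter119pos KO, against 2.12 and 1.70 in Ter119pos WT, and Epc2 per Kat5 was 0.413 and 0.493 in Ter119pos KO, against 1.29 and 1.05 in Ter119pos WT. Morf4l1 per Morf4l2 was 0.409 and 0.428 in Ter119neg KO, against 0.315 and 0.286 in Ter119neg WT, and 0.356 and 0.425 in Ter119pos KO, against 0.579 and 0.49 in Ter119pos WT. The KO libraries were thus above WT in one fraction and below it in the other. With 2 libraries a group, an exact permutation test of a ratio cannot reach a p under 0.05, and none is given.

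**Figure D3:**
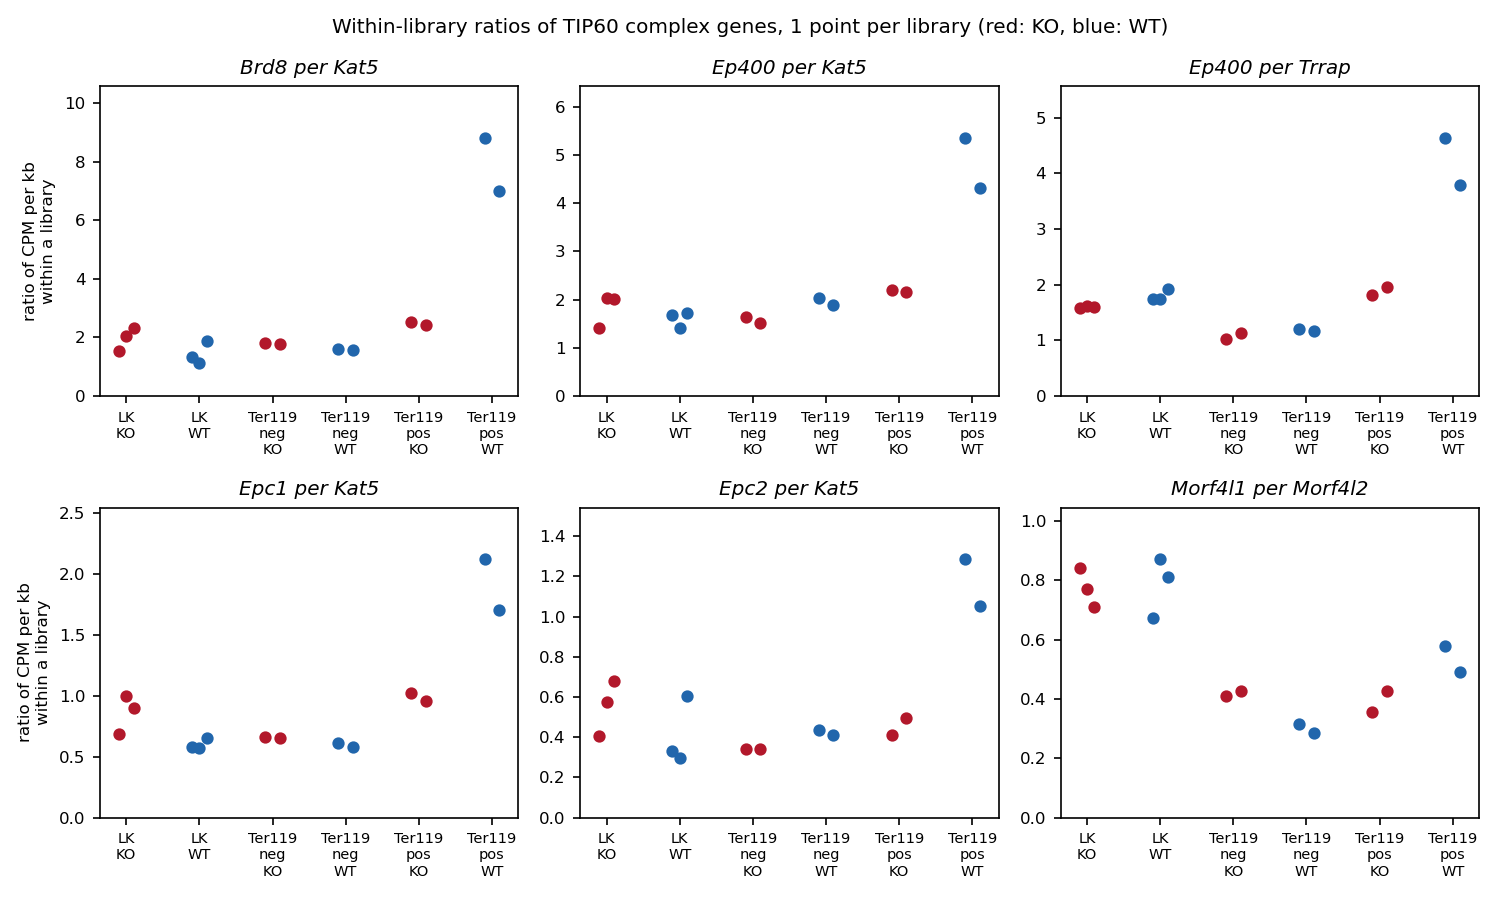
Ratios of levels per kilobase between pairs of members within each of the 14 libraries, by group (red KO, blue WT; vertical axes start at 0). Each point is 1 library. Brd8 per Kat5 lies at 2.53 and 2.44 in Ter119pos KO and at 8.82 and 6.99 in Ter119pos WT.

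In LK cells no member passed the test, where 1.15% of all genes were called higher and 0.661% lower. By edgeR, 0 of 10 had an unadjusted p under 0.05, the smallest being 0.0615 for Mbtd1. Mbtd1 had 86.4, 78.0 and 116 CPM in LK KO, against 53.4, 34.0 and 79.7 CPM in LK WT. The groups overlapped by 1 library each, and within each letter the KO library was the higher. The log2 fold change was 0.75 ± 0.338 (SE, edgeR adjusted p = 0.316). With the library letter as a block, same-letter libraries having varied together, it was 0.80 and called (adjusted p = 0.0159). Epc1 had 41.2, 39.2 and 45.3 CPM in LK KO, against 32.7, 29.3 and 39.1 CPM in LK WT, and was the 1 member whose libraries did not overlap, where 11.3% of all genes did not overlap in that direction, 12.9% in the other and 24.2% in either. Its log2 fold change of 0.31 ± 0.205 was not called (adjusted p = 0.482). Kat5 had 33.8, 22.3 and 28.3 CPM in LK KO, against 31.7, 29.2 and 33.8 CPM in LK WT, with overlap (-0.17 ± 0.227, adjusted p = 0.747).

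The genes that fell in Ter119pos KO did not pass the test in LK. Brd8 had 104, 90.2 and 131 CPM in LK KO, against 85.0, 65.2 and 126 CPM in LK WT. Ep400 had 229, 217 and 271 CPM in LK KO, against 252, 195 and 277 CPM in LK WT. Epc2 had 28.8, 26.8 and 40.2 CPM in LK KO, against 22.1, 18.2 and 42.8 CPM in LK WT. All of these overlapped, and the log2 fold changes were 0.23 ± 0.299, -0.02 ± 0.243 and 0.20 ± 0.362 (SE, adjusted p = 0.729, 0.979 and 0.803). Over the 10 members the log2 fold change ran from -0.17 to 0.75 with a median of 0.07, and that of all genes was -0.09. The SE of 0.196 to 0.362 sets what could be seen at this depth and number of libraries. LK and fetal liver tables were scaled apart, and whether the KO effect differed between them was not tested. The summed level of 8 granulocyte markers was 8400 to 16287 CPM in LK KO and 21474 to 46786 CPM in LK WT, and 0 of the 8 were called. The 10 macrophage markers summed to 110 to 235 CPM in LK KO and 255 to 328 CPM in LK WT. Of the 7 tested, 7 had negative log2 fold changes and 2, Adgre1 and Ctss, were called lower. Of 9 erythroid markers 1, Slc4a1, was called lower (-5.32, edgeR adjusted p = 0.01). Of the megakaryocyte markers 1 was called higher, as was 1 of the endothelial and stromal markers. The 6 progenitor markers summed to 6501 to 9353 CPM in LK KO and 11622 to 16959 CPM in LK WT, mostly from Mpo at 6449 ± 1344 CPM in LK KO and 13862 ± 2948 CPM in LK WT (SD, n = 3). The other 5, Kit, Cd34, Gata2, Myb and Flt3, had positive log2 fold changes, the median of the 6 was 0.36, and 0 of the 6 were called. The part of these shifts in the LK values was not tested.

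**Figure D4:**
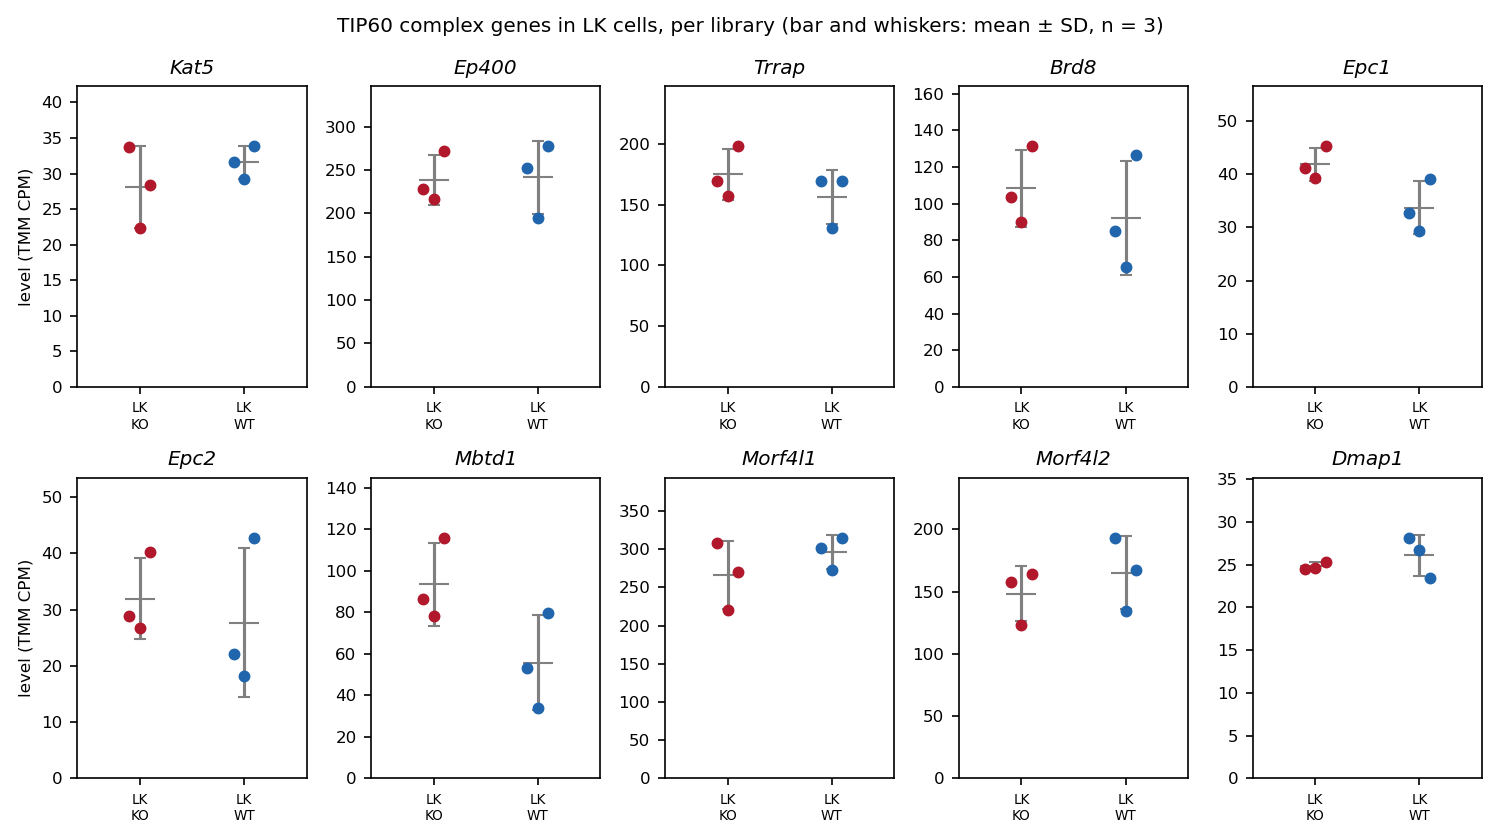
Levels of the 10 members in LK cells as TMM-scaled CPM, 1 point per library (red KO, blue WT), with the mean and SD of 3 as bar and whiskers. Epc1 lies at 39.2 to 45.3 CPM in LK KO and at 29.3 to 39.1 CPM in LK WT, and the other 9 members overlap.

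Outside the 10 members, 8 further subunits of the complex were read from the same fits. In Ter119pos KO against WT, 3 were called lower and 1 higher, against 29.3% and 24.8% of all genes, so the share called was near that of all genes. Ing3, a reader of methylated histone H3, had 4.55 and 5.26 CPM in KO, against 11.3 and 11.2 CPM in WT (log2 fold change -1.21, edgeR adjusted p = 3.15e-05). Mrgbp, the partner of the MRG proteins, was at -1.02 (adjusted p = 0.000525) and Meaf6, a subunit of several MYST complexes, at -0.92 (adjusted p = 0.000324), while the ATPase gene Ruvbl2 was higher at 0.53 (adjusted p = 0.00261). The median of the 8 was -0.26. In Ter119neg and in LK, 0 of 8 were called by edgeR, against 19.1% and 1.82% of all genes. An unadjusted p under 0.05 was found for 1 of them in Ter119neg, Meaf6 at -0.34, and for 0 in LK. In the difference between the KO effects, Ing3 (-0.96, adjusted p = 0.00258), Mrgbp (-0.89, adjusted p = 0.0088) and Meaf6 (-0.59, adjusted p = 0.0421) were called lower, where 22.4% of all genes were called lower and 41.7% in either direction.

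Genes of complexes that share subunits or enzyme family with TIP60 were read in the same comparison of Ter119pos KO with WT, in which 54.2% of all genes were called, 29.3% lower and 24.8% higher. Of the SRCAP genes, Srcap itself had 67.3 and 51.0 CPM in KO, against 207 and 163 CPM in WT (log2 fold change -1.64, edgeR adjusted p = 9.96e-06), while Znhit1 (1.27, adjusted p = 1.37e-05) and Actr6 (1.04, adjusted p = 0.00305) were higher. Among 4 other MYST acetyltransferases, Kat6a (-1.95, adjusted p = 1.56e-07) and Kat7 (-1.03, adjusted p = 7.46e-06) were lower and Kat6b (0.53, adjusted p = 0.00514) was higher. Of 9 SAGA genes tested, 5 were lower and 1 higher, and of 8 SIN3 partners 5 were lower and 1 higher, Sin3a falling (-1.61, adjusted p = 5.37e-07) and Sin3b rising (1.37, adjusted p = 1.01e-06). In Ter119neg, 2 MYST genes and 1 SAGA gene were called lower and 1 SIN3 partner higher, where 9.55% of all genes were called lower and 9.57% higher. In LK cells none of these lists had a gene called by edgeR, where 1.82% of all genes were. The smallest unadjusted p there was 0.0155, for Tada3 of SAGA.

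Across the 8 fetal libraries the log2 levels of Ep400, Brd8, Epc1 and Epc2 had Pearson correlations of 0.940 to 0.993 with each other (6 pairs) and of -0.988 to -0.936 with Dmap1 (4 pairs), and the median over all 45 pairs of members was -0.153. The 4 genes were picked because their KO effects differed between the fractions in the same direction in these same 8 libraries. Dmap1 was called in the opposite direction in them. Correlations of these signs follow from that choice and are no further support. The points also share the libraries, their scaling factors and the 4 groups, and 2 libraries of each group lie close together. The genes most like Kat5 among 7942 compared over the same 8 libraries were Slc26a1 (0.955), Dzip3 (0.947), Anks3 (0.946), Nr2c2 (0.946) and Zfp445 (0.944). They are the largest of many correlations over few libraries, so high values arise from the choice itself, and no link to Kat5 was tested.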

How the data were processed

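The 14 libraries were made from total RNA with a stranded kit, and Ribo-Zero depletion is named for fetal liver only, per the labels' protocols. STAR 2.5.3 and RSEM on GRCm38 (mm10) are named in the submitters' processing notes. The RSEM version, annotation release and strand setting are not given in the sources used. The authors deposited expected counts by gene from RSEM, with no further normalization, in 1 table for fetal liver and another for LK cells, each of 45706 genes. Identical values were found in 0 pairs of libraries. Coordinates and transcript lengths came from GENCODE M21 on GRCm38, and promoter windows from RefSeq.

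Expected counts were rounded and fitted in R 4.3.3 with edgeR 4.0.16 (TMM, filterByExpr, glmQLFit and glmQLFTest): 1 model of the 8 fetal libraries (15566 genes) and 1 of the 6 LK libraries (13771 genes). Adjusted p-values are Benjamini and Hochberg's over all genes tested in a comparison, and a gene was called under 0.05. SE is the absolute log2 fold change divided by the root of F. Levels are CPM with TMM factors, and correlations used log2 CPM with a prior count of 2. All 10 members passed the filter in both models, and all are named whatever they did. Further subunits are described by counts, and at most 3 genes of each neighbouring list are named, by smallest p. Sgf29 of the SAGA list and Epb42 of the erythroid markers had no row with that symbol. The genes most like Kat5 are the 5 with the highest correlation among genes with a mean of at least 5 CPM. The members, lists, tests and alternatives were chosen with earlier results of these data known.

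LK libraries of the same letter varied together (correlation of deviations from the group means 0.604, 0.719 and 0.730), so results with the letter as a block are given where they change a call. What a letter stands for is not in the labels. Fetal libraries of the same mouse come from the same animal, and the mouse was a block in comparisons across fractions, with 1 residual degree of freedom per gene before the pooling of variance; their correlations were 0.155 for KO mice and -0.0678 for WT mouse 4. Alternatives were RLE factors, scaling by total counts, all genes kept without a filter, limma-voom (limma 3.58.1), DESeq2 1.42.0, removal of globin or Rn18s-rs5 rows, 1 fraction fitted alone, both blocks, and leaving out each library in turn. In the last, the remaining library of a group is assumed to vary like the others. A random mouse effect in limma-voom was added after seeing the data. Scripts were tested on simulated data.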

Additional observations from a re-analysis of the deposited data

Results flagged for a closer look

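The KO effect differed between Ter119pos and Ter119neg cells for 6 of the 10 members, by edgeR's test of the difference itself over all 8 fetal libraries. On the log2 scale the KO effect in Ter119pos minus that in Ter119neg was -2.11 for Brd8 (adjusted p = 1.37e-05), -1.34 for Epc1 (adjusted p = 0.000137), -1.33 for Epc2 (adjusted p = 0.000185) and -1.09 for Ep400 (adjusted p = 0.000706). It was 0.75 for Dmap1 (adjusted p = 0.0127) and 0.73 for Morf4l2 (adjusted p = 0.00383). Of all tested genes, 41.7% were called in this test.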

How the results depend on the processing

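Each fit has 2 or 3 libraries a group, so SEs and calls rest on spread pooled across genes and groups. Members were called in these numbers under other settings. In Ter119neg KO against WT, 1 was called with RLE factors, with no filter or with DESeq2, and 0 to 2 with a library left out, against 2. In Ter119pos KO against WT, 9 were called with total count scaling (0 higher, 9 lower), against 5 (1 higher, 4 lower). In Ter119pos against Ter119neg in KO, 10 were called with total count scaling (0 higher, 10 lower), 3 with no filter and 3 to 8 with a library left out, against 6 (4 higher, 2 lower). With a replicate block on the letter, 1 member was called in LK (Mbtd1, 0.80), against 0; beyond the calls given beside their results, the blocks changed no other member's call. The other counts of members stayed within 1.5 times, but the members called could differ. With total count scaling in Ter119neg, Ep400 and Epc2 were called lower (both -0.59, edgeR adjusted p = 0.0369 and 0.0331). Mbtd1 was not called there (0.06, adjusted p = 0.844). In the difference of KO effects, Kat5, Mbtd1 (-0.93) and Morf4l1 (-0.76) were called lower with that scaling, and Dmap1 and Morf4l2 were not called. With total count scaling the median log2 fold change of all genes was -0.93 in Ter119pos KO against WT. Between the fractions in KO it was -1.86. The share of all genes called under these other settings is not given here, so the 9 and 10 lower calls are not a result about the members.

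Total count scaling moved the median of all genes by 0.13 in LK, -0.31 in Ter119neg KO against WT, -0.89 in Ter119pos KO against WT, -1.74 and -1.16 between fractions in KO and in WT, and -0.57 in the difference of KO effects. Members changed direction with it as follows. In LK, Ep400 was 0.074 and Dmap1 0.052. In Ter119neg, Kat5 was -0.28, Brd8 -0.092, Epc1 -0.14 and Dmap1 -0.090. In Ter119pos, Mbtd1 was -0.87 and Morf4l2 -0.67. Between fractions in KO, Ep400 was -1.39, Brd8 -1.38, Epc1 -1.25, Epc2 -1.45, Morf4l1 -1.49 and Morf4l2 -1.38, and in WT Kat5 was -1.01 and Morf4l1 -0.72. These follow from the shift of all genes.

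Kat5 in Ter119neg was -0.019 with RLE factors, -0.0058 with no filter, -0.019 with DESeq2 and -0.0021 with globin genes removed. With globin genes removed, Kat5 between fractions in KO was 0.020 and the Trrap difference of KO effects 0.063. The cause was not tested. With a library left out, values that changed direction ran from -0.15 to 0.096 (Ep400), -0.14 to 0.032 (Dmap1), -0.29 to 0.015 (Morf4l2) and -0.024 to 0.67 (Epc2) in LK. They ran from -0.073 to 0.041 (Kat5) and -0.19 to 0.064 (Morf4l1) in Ter119neg, -0.071 to 0.14 (Mbtd1) in Ter119pos, and -0.18 to 0.22 (Trrap) and -0.34 to 0.087 (Morf4l1) in the difference of KO effects. None of these was called before or after.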
